A study of Mus musculus with 24 samples.

Results

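Ribosomal protein genes of the cytosolic ribosome were followed in RNA of mouse aorta. The 87 members were chosen by name alone, from 40141 genes in all. Their symbols are Rpl or Rps and a number, followed by no more than a single letter (a, l, x or y) and a single digit. Rplp0, Rplp1, Rplp2 and Rpsa were added, and symbols that mark pseudogenes by -ps were left out. By name, 52 belong to the large and 35 to the small subunit. The table of genes pairs each symbol with an Ensembl identifier, and all 87 identifiers were in GENCODE M21 (GRCm38), where 82 are protein coding and 5 are processed pseudogenes (Rpl6l, Rpl32l, Rps3a2, Rps3a3 and Rps4l). All 87 passed the filter on low counts, which kept 24623 genes.

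The study sequenced total RNA of aorta from cthrc1-/- mice (Cthrc1 knockout) and wild type mice (WT) that received Ang-II/BAPN or PBS. Angiotensin II raises blood pressure, and BAPN (beta-aminopropionitrile) inhibits the enzymes that cross-link collagen and elastin. PBS is the saline control. There were 6 libraries for each of 4 groups: knockout under Ang-II/BAPN, knockout under PBS, wild type under Ang-II/BAPN and wild type under PBS. The titles divide each group into 3 libraries with an F at the head of the title (the F set) and 3 without it (the plain set), and the meaning of F is not stated in them. The labels give no age, sex or strain, no doses or treatment times, and nothing on pooling. They do not say which part of the aorta was taken, how the Cthrc1 allele was made, or whether libraries of a group come from different animals, so that a p-value reflects only how far these libraries spread, and that spread may be technical.

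A cytosolic ribosome is built from a small and a large subunit, each a set of proteins held on ribosomal RNA, and the proteins are needed in matched amounts. Their mRNAs start with a cytosine followed by a run of pyrimidines, the 5′ terminal oligopyrimidine motif, through which the kinase mTORC1 and the RNA-binding protein Larp1 set how much of each mRNA is translated. In the vessel wall, ribosome production is known to go with growth of smooth muscle cells and with activation of immune cells.

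RefSeq promoter windows of GRCm38.p6 matched 63 of the 87 members. A run of at least 8 pyrimidines that begins with C lay between 40 bases before and 20 bases after the annotated start in 33 of these 63 (52.4%), against 18.8% of 26962 other promoters. The 6 bases CGGAAG, on either strand between 250 bases before and 50 bases after the start, were found in 42 of 63 (66.7%), against 17.0% of the others. A match is a description of the letters and not a site of binding. The windows below hold the longest runs, that of Rpl13, which was called between the genotypes under Ang-II/BAPN, and that of Rpl4, which varied least among all members. Capitals mark the pyrimidine run, and the start lies at base 41 of each 60-base window. The runs of Rpl13 and Rpl4 end before base 41 and so lie upstream of the annotated start. The count of 33 includes such runs.
Rpl27a (chr7:109519155-109519214, plus strand): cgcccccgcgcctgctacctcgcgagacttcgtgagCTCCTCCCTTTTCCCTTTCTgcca
Rpl7a (chr2:26910767-26910826, plus strand): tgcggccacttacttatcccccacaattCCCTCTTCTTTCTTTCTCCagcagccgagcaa
Rpl35 (chr2:39005112-39005171, minus strand): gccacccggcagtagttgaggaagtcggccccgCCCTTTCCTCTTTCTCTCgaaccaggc
Rpl15 (chr14:18270967-18271026, minus strand): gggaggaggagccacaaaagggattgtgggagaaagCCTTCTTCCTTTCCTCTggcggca
Rpl13 (chr8:123102310-123102369, plus strand): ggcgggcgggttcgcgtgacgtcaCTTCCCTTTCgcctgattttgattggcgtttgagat
Rpl4 (chr9:64173347-64173406, plus strand): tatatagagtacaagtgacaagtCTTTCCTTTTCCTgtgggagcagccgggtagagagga

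Members differ in how short their coding sequences are, and that difference recurs in the results. The coding sequences below (GENCODE M21, GRCm38, without the stop codon) are shown because these genes are among the shortest. Capitals mark the start codon.
Rpl41 (chromosome 10, minus strand, 75 nt): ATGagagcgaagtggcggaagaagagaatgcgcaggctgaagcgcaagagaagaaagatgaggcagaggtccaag
Rpl39 (chromosome X, minus strand, 153 nt): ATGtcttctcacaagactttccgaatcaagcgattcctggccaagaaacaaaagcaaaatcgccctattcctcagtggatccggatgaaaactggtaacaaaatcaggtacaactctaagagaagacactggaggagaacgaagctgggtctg

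Libraries held 39002048 to 82040703 counts, of which mitochondrial genes took 9.59 to 31.9%. Cthrc1 lay between 1.79 and 10.5 CPM (counts scaled to a common library size with TMM factors) in knockout aorta under Ang-II/BAPN, against 26.5 to 112 CPM in wild type under Ang-II/BAPN, and between 0.165 and 0.547 CPM in knockout under PBS, against 1.52 to 2.47 CPM in wild type under PBS. These ranges did not overlap. The summed level of 6 smooth muscle markers was 1717 to 34930 CPM, above 0 in all 24 libraries. Other libraries stood apart in ways that touch the members. In 5 libraries Rn7sk, a small nuclear RNA made by RNA polymerase III, exceeded 3 times its median over all libraries: knockout Ang-II/BAPN F replicate 1, knockout PBS F replicate 2 and plain replicate 2, and wild type PBS F replicates 2 and 3. In wild type Ang-II/BAPN F replicate 1 the summed level of 4 red cell genes was 42360 CPM, that of 6 macrophage markers 4268 CPM and that of 4 B cell markers 78.9 CPM. In 4 of the 6 wild type Ang-II/BAPN libraries (F replicate 2 and the 3 plain ones) the summed level of 5 intestine markers exceeded 50 CPM, against at most 13.3 CPM in any other library. The summed level of 5 kidney tubule markers was 2321 CPM in wild type Ang-II/BAPN plain replicate 2, against 12.3 to 20.6 CPM in the other 5 libraries of that group, and reached 2297 CPM in knockout under PBS.

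Ribosomal protein genes took a small and overlapping share of the counts in all groups. The lowest, median and highest share were 1.75, 2.13 and 2.80% in knockout aorta under Ang-II/BAPN, and 1.56, 1.86 and 2.58% in knockout under PBS. In wild type they were 1.31, 1.83 and 3.24% under Ang-II/BAPN, and 1.21, 1.63 and 2.36% under PBS. Means were 2.18 ± 0.386% and 1.90 ± 0.364% in knockout and 1.94 ± 0.682% and 1.72 ± 0.482% in wild type, Ang-II/BAPN before PBS (SD, n = 6 each). The groups overlapped throughout, and no test was run on the share. The counts are of bulk tissue, so that fewer cells of a type and less RNA per cell cannot be told apart.

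**Figure D1:**
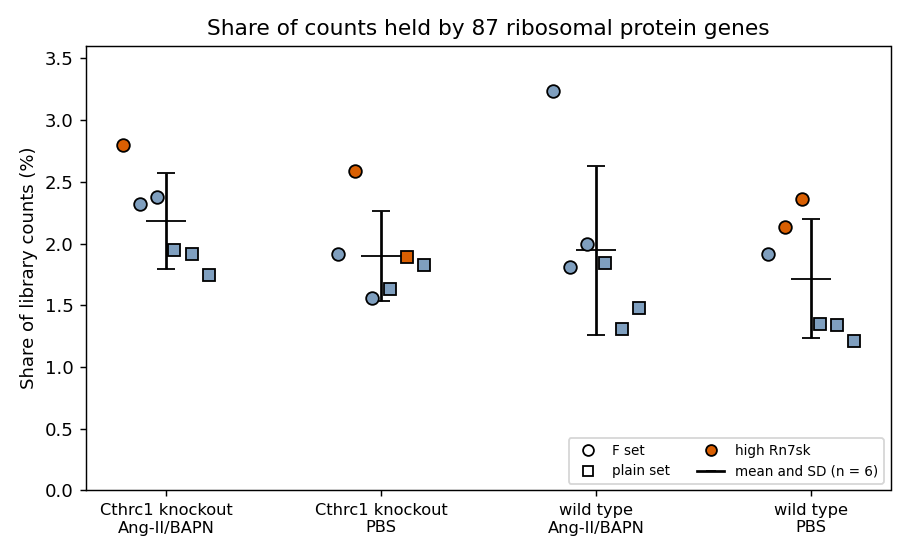
Share of each library's counts (%) held by the 87 members, by genotype and treatment; circles are the F set, squares the plain set, orange points the 5 libraries with high Rn7sk, and bars the mean and SD of 6 libraries. The share runs from 1.21 to 3.24% and the 4 groups overlap.

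Per transcript length, members spanned a wide range. By mean FPKM over 24 libraries, which corrects for length, the highest were Rps15 (582 FPKM), a protein of the small subunit head, Rplp1 (548 FPKM), an acidic protein of the stalk that recruits elongation factors, and Rps3a1 (468 FPKM), a small subunit protein. Rplp0, the base of the same stalk, followed with 420 FPKM, while Rplp2, another stalk protein, averaged 56.4 FPKM. These means include the 5 libraries with high Rn7sk, and the order of the highest members over the other 19 is not given here. Among those 5, knockout Ang-II/BAPN F replicate 1 had Rps15 at 1110 CPM, against 380 CPM in the next library of its group. Rplp1 was at 916 CPM there, against 394 CPM in the next library. The lowest were Rpl39l (0.0839 FPKM), Rpl3l (0.218 FPKM) and the pseudogene Rpl32l (0.777 FPKM). Rpl39l is known from mouse testis and Rpl3l from mouse skeletal and heart muscle.

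Members varied less between libraries than most genes. Their median SD of log2 CPM over the 24 libraries was 0.48, against 0.75 over all 24623 genes. The genes compared were not matched for level. Among the 82 protein-coding members the SD was smaller at a higher mean CPM (Spearman's rho across genes -0.56). The part of level in the lower SD of the members was not tested. The smallest SDs were those of Rpl4 (0.27), a large subunit protein that lines the exit tunnel, Rpl5 (0.28), which carries 5S ribosomal RNA, and Rps6 (0.28), the substrate of S6 kinases. Rpl4 ranged from 496 to 748 CPM in knockout under Ang-II/BAPN, against 486 to 568 CPM in knockout under PBS, and from 508 to 1110 CPM in wild type under Ang-II/BAPN, against 454 to 615 CPM in wild type under PBS. The groups overlapped, and the highest value belonged to wild type Ang-II/BAPN F replicate 1. The largest SDs among members were those of Rpl3l (2.19), Rpl39l (1.32) and Rps29 (1.12); the first pair rest on few counts.

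Short members varied more between libraries than long ones, mainly through the 5 libraries with high Rn7sk. Over the 82 protein-coding members the SD of log2 CPM was smaller for longer coding sequences (Spearman's rho across genes -0.67; the genes share the same libraries and depth, and no p is given). The median SD was 0.74 in a short group (28 genes of 75 to 399 nt), 0.54 in a middle group (26 genes of 405 to 564 nt) and 0.36 in a long group (28 genes of 576 to 1257 nt). Among the 19 libraries without high Rn7sk these medians were 0.40, 0.38 and 0.36, and rho was -0.27. Over all libraries the SD was also smaller for members with a higher mean CPM (rho -0.56). The parts of length and of level were not separated. The division into 3 groups of near equal size was chosen after the values were seen.

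**Figure D2:**
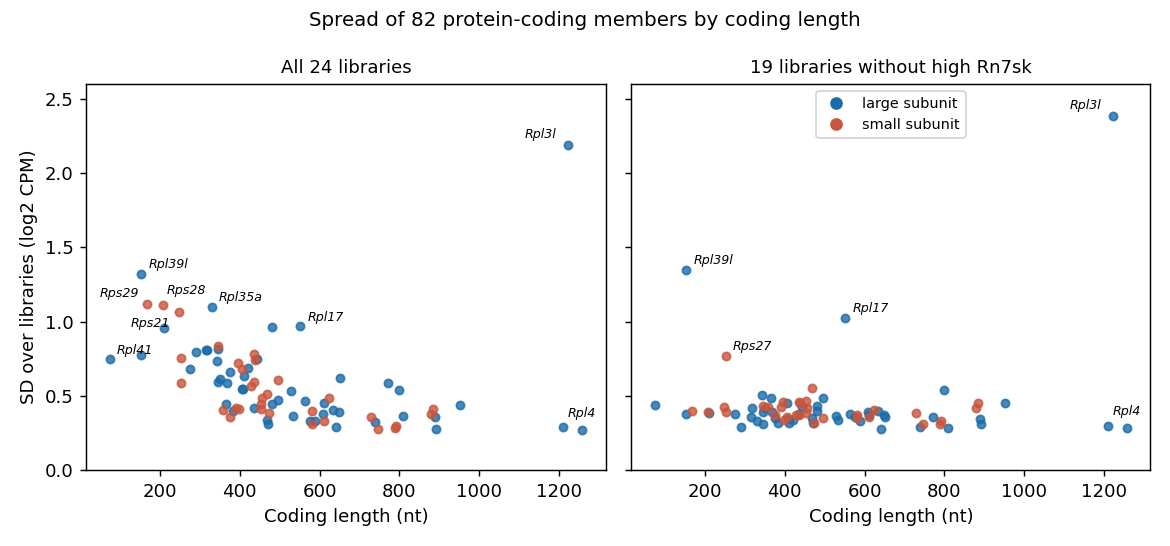
SD of log2 CPM over libraries (vertical axis) against coding length in nt (horizontal axis) for the 82 protein-coding members, over all 24 libraries (left) and over the 19 without high Rn7sk (right); blue points are large and red points small subunit genes. The short group has a median SD of 0.74 on the left and 0.40 on the right.

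Rps29, a zinc-binding protein of the small subunit with a coding length of 168 nt, shows the pattern. It had 41.7, 47.0 and 429 CPM (lowest, median and highest) in knockout under Ang-II/BAPN, and 33.3, 48.6 and 198 CPM in knockout under PBS. It had 19.6, 38.2 and 56.6 CPM in wild type under Ang-II/BAPN, and 29.4, 54.9 and 231 CPM in wild type under PBS. The 5 libraries with high Rn7sk held its 5 highest values, from 149 to 429 CPM, and the other 19 lay between 19.6 and 60.6 CPM. Its SD of 1.12 over 24 libraries became 0.40 over those 19. Rps21 and Rps28, both small subunit proteins, and Rpl35a, a large subunit protein, behaved alike, with SDs of 1.06, 1.11 and 1.10 over 24 libraries and 0.42, 0.40 and 0.33 over 19.

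As a summary per library, each gene's log2 CPM was taken relative to its own mean, and the median over the long group was subtracted from that over the short group. This difference was 0.82 to 1.36 in the 5 libraries with high Rn7sk, where Rn7sk itself was 4.85 to 32.7 CPM. It was -0.50 to 0.07 in the other 19, where Rn7sk was 0.173 to 1.45 CPM. The ranges of the difference did not overlap. Those of Rn7sk could not overlap, because the 5 libraries were chosen by their Rn7sk level. In those 5 libraries the short group lay 0.86 to 1.61 above its mean and the long group 0.01 to 0.25, while in the other 19 the lowest and highest values were -0.95 and 0.52 for the short group and -0.55 and 0.90 for the long group. Of the 5 libraries, 3 belong to the PBS groups of the F set and 1 to a PBS group of the plain set, and only 1 was treated. Both members and Rn7sk are scaled to the same library totals, and the part of Rn7sk in the members' levels was not tested. Other markers moved with these libraries. The 4 under PBS had the lowest macrophage sums of all PBS libraries (60.4 to 79.8 CPM, against 116.5 to 246 CPM in the others), and all 5 had the highest sums of 4 testis germ cell markers (0.337 to 1.03 CPM, against at most 0.0998 CPM). The germ cell sums were close to the lower limit, with up to 2 of those markers at 0 counts in a library. The part of the macrophage and germ cell markers was not tested either.

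**Figure D3:**
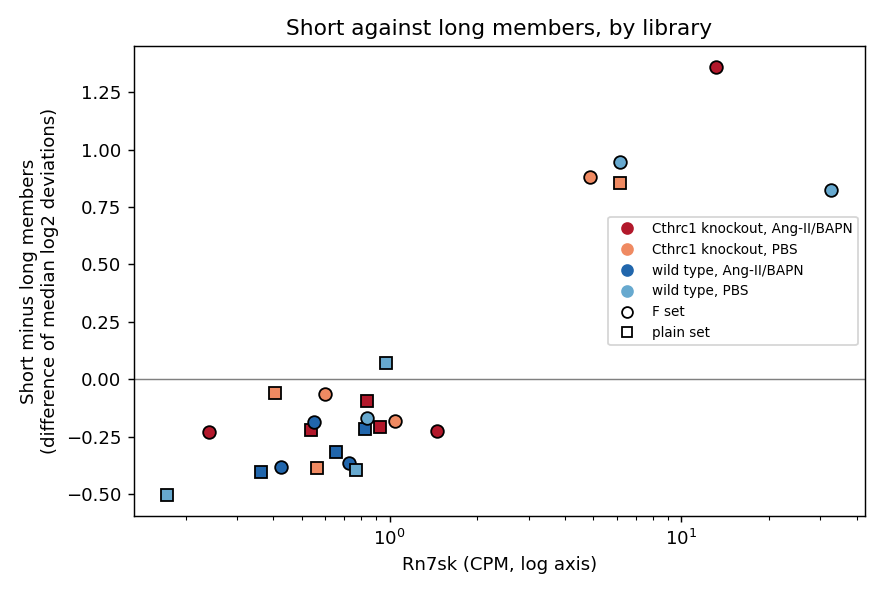
Median log2 deviation of the short group of protein-coding members minus that of the long group (vertical axis) against Rn7sk in CPM (horizontal log axis), 1 point per library, coloured by genotype and treatment, with circles for the F set and squares for the plain set. The 5 libraries with Rn7sk of 4.85 CPM or more lie between 0.82 and 1.36 and the other 19 between -0.50 and 0.07.

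Members of all lengths were high in another library. In wild type Ang-II/BAPN F replicate 1 the long group lay 0.90 and the short group 0.52 above its mean on the log2 scale, and the library held the highest value of 37 of the 87 members. Knockout Ang-II/BAPN F replicate 1, the treated library with high Rn7sk, held the highest value of 42 others. The lowest value of 48 members was that of wild type Ang-II/BAPN plain replicate 2, the library with the highest intestine and kidney tubule sums (211 and 2321 CPM), whose part was not tested. Rpsa, a small subunit protein also known as the laminin receptor, reached 1830 CPM in wild type Ang-II/BAPN F replicate 1, against 546 to 779 CPM in the other 5 libraries of that group. The part of the red cells and immune cells of that library in these values was not tested.

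**Figure D4:**
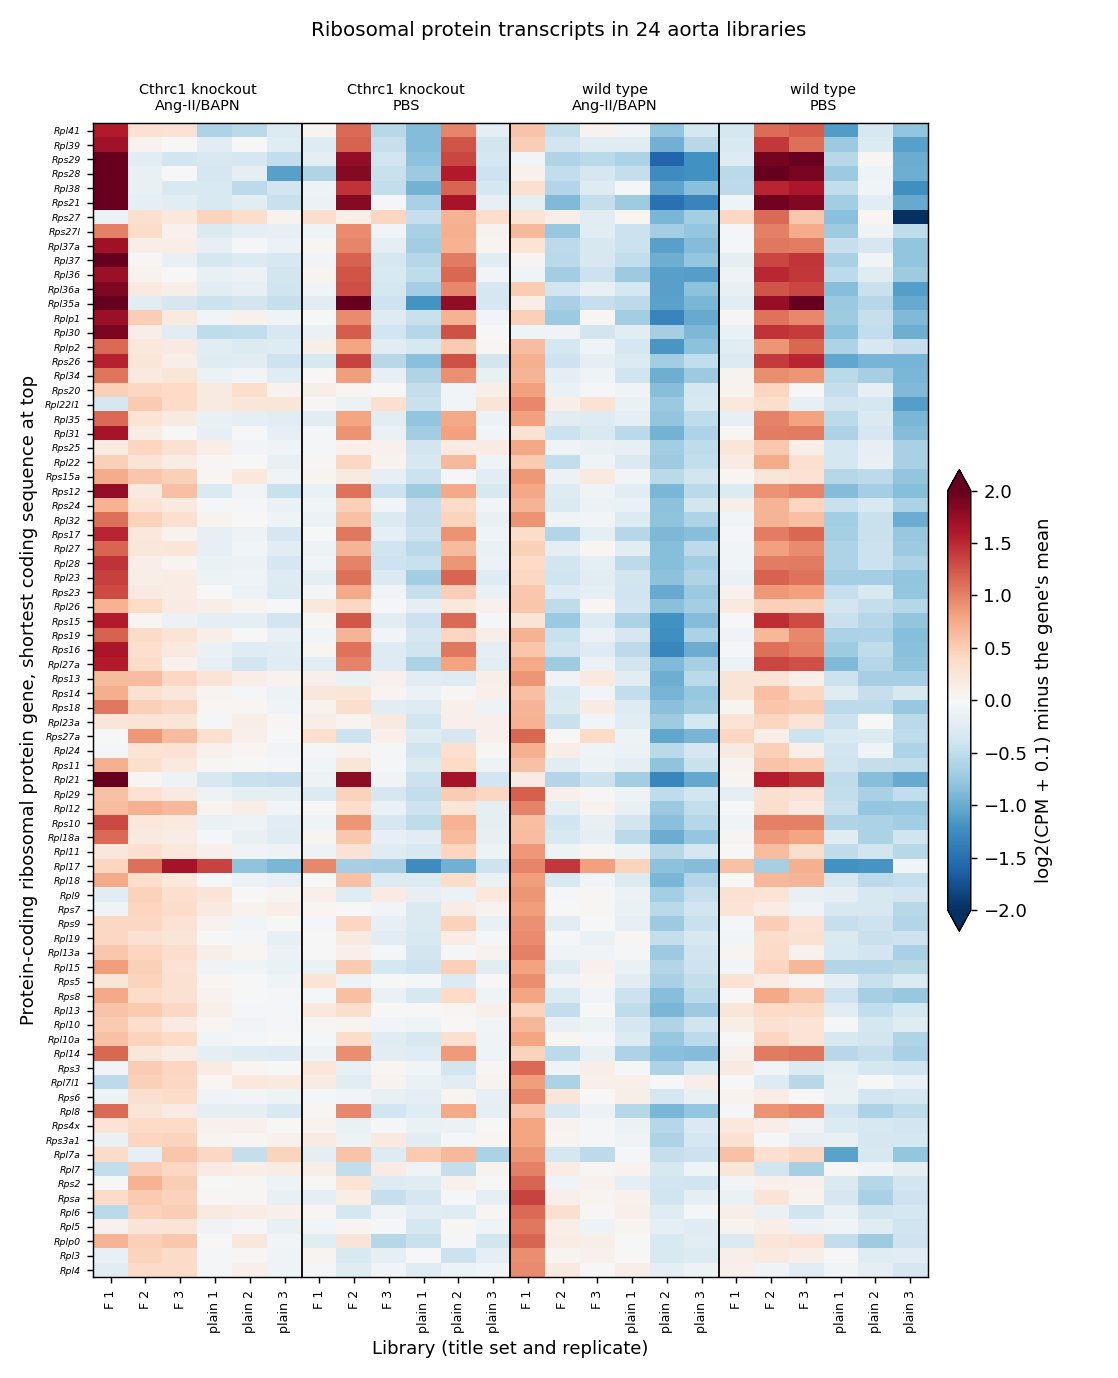
Each of 80 protein-coding members (rows, shortest coding sequence at the top; Rpl3l and Rpl39l, at 0 in several libraries, are left out) in each of 24 libraries (columns, by genotype, treatment, title set and replicate), as log2(CPM + 0.1) minus the gene's mean, with colours clipped at -2 and 2. Short members are high in the 5 libraries with high Rn7sk, and long members are highest in wild type Ang-II/BAPN F replicate 1.

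The first comparison set Ang-II/BAPN against PBS in Cthrc1 knockout aorta. No member passed the edgeR quasi-likelihood test at a Benjamini-Hochberg adjusted p under 0.05, while 11.4% of all genes did. At an unadjusted p under 0.05 there were 4 members higher and 1 lower of 87, against 24.4% of all genes in either direction. DESeq2 called 0 members higher and 1 lower, and the share of all genes that it called is not given here. The median log2 fold change of the members was 0.13, against -0.03 over all genes tested, and 63 of 87 were positive. The smallest p-values were those of Rpl3l, described below with the other low members, and Rps15a. Rps15a, a small subunit protein, had 145, 195 and 256 CPM under Ang-II/BAPN, against 114, 143 and 174 CPM under PBS. The ranges overlapped (log2 fold change 0.42, SE 0.15, edgeR adjusted p = 0.0805). Rplp0 had 707, 941 and 1180 CPM under Ang-II/BAPN, against 498, 600 and 878 CPM under PBS. The ranges overlapped here too (0.52, SE 0.19, edgeR adjusted p = 0.0817). Without the 5 libraries with high Rn7sk and wild type Ang-II/BAPN F replicate 1, a choice made after the values were seen, 7 members were called higher, among them Rplp0 (0.65, edgeR adjusted p = 0.00289), Rpsa (0.50, edgeR adjusted p = 0.0191) and Rps15a (0.44, edgeR adjusted p = 0.0363). In that fit 14.8% of all genes were called. Cell type markers differed with treatment in knockout aorta: the summed level of 6 macrophage markers was 710 to 1653 CPM in treated and 79.2 to 246 CPM in untreated libraries, and that of 6 smooth muscle markers 7501 to 14680 CPM in treated and 16410 to 34930 CPM in untreated ones. Their part was not tested.

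The same comparison in wild type aorta called 1 member higher and 1 lower, where 24.8% of all genes were called. At an unadjusted p under 0.05 there were 4 higher and 6 lower of 87, against 36.7% of all genes. The median was -0.12, against 0.01 over all genes, and 37 of 87 were positive. With library sizes alone both medians were higher, 0.15 for the members and 0.26 for all genes, so that the members' median lay below that of all genes under either scaling.

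Rpl6l (ENSMUSG00000091086, GRCm38 chromosome 10, positions 111125851 to 111126721, plus strand), a processed pseudogene of Rpl6, was the member called higher. It had 12.3, 15.9 and 31.5 CPM under Ang-II/BAPN, against 9.77, 11 and 14.5 CPM under PBS. The ranges overlapped, with the highest value in F replicate 1 (0.67, SE 0.20, edgeR adjusted p = 0.0172). Without that library the change was 0.51 (edgeR adjusted p = 0.0584). The copy is 98.7% identical to Rpl6 over 871 bases, so that reads of the parent can be counted for it, and its value is uncertain. Rpl6 itself had 258, 321 and 670 CPM under Ang-II/BAPN, against 232, 261 and 334 CPM under PBS (0.46, SE 0.19, edgeR adjusted p = 0.0847), again with overlap. The 60 bases below, positions 458 to 517 of the copy, hold more differences between the pair than any other stretch of that length. Capitals mark the 6 bases that differ.
Rpl6l (chromosome 10, plus strand, GRCm38): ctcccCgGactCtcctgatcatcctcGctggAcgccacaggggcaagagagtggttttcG
Rpl6 (chromosome 5, plus strand, GRCm38): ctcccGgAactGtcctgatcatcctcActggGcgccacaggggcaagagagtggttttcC

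Rpl36 (ENSMUSG00000057863, GRCm38 chromosome 17, positions 56613416 to 56614243, plus strand), a large subunit protein with a coding length of 315 nt, was the member called lower. It had 31.1, 40.9 and 63.2 CPM under Ang-II/BAPN, against 40.8, 59.6 and 189 CPM under PBS. The ranges overlapped (-0.98, SE 0.35, edgeR adjusted p = 0.0484). The 189 and 178 CPM of the PBS libraries with high Rn7sk stood far above the other 4. The call held in 8 of 24 fits that each left out 1 library, and in 4 of 18 other settings. Without the 5 libraries with high Rn7sk the change was -0.37 (edgeR adjusted p = 0.137). Rps21 (-1.25, edgeR adjusted p = 0.065) and Rps29 (-1.27, edgeR adjusted p = 0.0974) were in the same position, with PBS values up to 246 and 231 CPM in those libraries. By coding length the median change was -0.41 in the short group, -0.22 in the middle group and 0.12 in the long group, and in knockout aorta 0.02, 0.10 and 0.19. Over all members the median without the 5 libraries was 0.11, with no member called, where 18.2% of all genes were called. Cell type markers differed with treatment here too: the summed level of 6 macrophage markers was 643 to 4268 CPM in treated and 60.4 to 192 CPM in untreated wild type aorta, and that of 6 smooth muscle markers 1717 to 6213 CPM in treated and 19260 to 27720 CPM in untreated wild type aorta. Their part in the members' changes was not tested.

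Between the genotypes under Ang-II/BAPN, most members had positive fold changes, with 1 of them called. The median log2 fold change of knockout over wild type was 0.37, against -0.003 over all genes tested, and 75 of 87 were positive. At an unadjusted p under 0.05 there were 24 members higher and 0 lower of 87, against 24.9% of all genes. Counted in either direction, these shares are close. The members were all higher, while 49.7% of all genes tested had positive fold changes. The share of all genes that were higher at that p is not given here. After adjustment over all genes 1 member was called higher and 0 lower, where 6.13% of all genes were called, 4.26% higher. DESeq2 called 4 higher, and limma on FPKM called 0. The shares of all genes above are those of edgeR, and those of DESeq2 and limma are not given here.

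The called member was Rpl13 (ENSMUSG00000000740, GRCm38 chromosome 8, positions 123102350 to 123105244, plus strand), a large subunit protein. It had 392, 484 and 595 CPM in knockout, against 214, 286 and 550 CPM in wild type. The ranges overlapped through wild type F replicate 1 (550 CPM) and F replicate 3 (400 CPM); the other 4 wild type libraries, at 214 to 288 CPM, lay below every knockout library (0.59, SE 0.14, edgeR adjusted p = 0.0168). The call was lost in 9 of 18 other settings, leaving out single libraries not counted. They were library sizes alone (0.47, edgeR adjusted p = 0.0776), the F set alone (0.47, edgeR adjusted p = 0.235), the plain set alone (0.72, edgeR adjusted p = 0.2), the title set left out (0.57, edgeR adjusted p = 0.0975), only the libraries compared (0.57, edgeR adjusted p = 0.111), the libraries without high Rn7sk (0.56, edgeR adjusted p = 0.0564), the F set without libraries with intestine markers (below) and limma on FPKM with either pseudocount (0.47, limma adjusted p = 0.103 and 0.102). Rps14, a small subunit protein of the platform, had 299, 355 and 531 CPM in knockout, against 169, 244 and 490 CPM in wild type (0.50, SE 0.15, edgeR adjusted p = 0.0513). Rplp1 had 263, 310 and 916 CPM in knockout, against 111, 171 and 390 CPM in wild type (0.96, SE 0.29, edgeR adjusted p = 0.0555). Both ranges overlapped.

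By coding length the median was 0.51 in the short group, 0.50 in the middle group and 0.18 in the long group. The small subunit had a median of 0.38 and the large subunit of 0.35. One library weighed on the count: without wild type Ang-II/BAPN F replicate 1, the library with many red cell and immune cell counts, 12 members were called higher, 84 of 87 were positive and the median was 0.56, where 5.85% of all genes were called. Without that library and the 5 with high Rn7sk, 23 were called higher, 84 were positive and the median was 0.41, where 6.54% of all genes were called. The 23 were led by Rpl13 (0.68, edgeR adjusted p = 0.0106), Rpl14 (0.50, edgeR adjusted p = 0.0155) and Rps14 (0.54, edgeR adjusted p = 0.0178). Both sets of libraries were chosen after the members' values were seen, and the library left out first is the one in which long members were highest, so that these counts are descriptions.

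Markers of other cell types moved with the same contrast. The summed level of 6 smooth muscle markers was 7501 to 14680 CPM in treated knockout and 1717 to 6213 CPM in treated wild type libraries, without overlap. That of 5 fibroblast markers had a median of 15500 CPM in treated knockout and 9080 CPM in treated wild type, with overlap. The summed level of the intestine markers was at most 0.378 CPM in the knockout libraries under Ang-II/BAPN, against 0.3 to 211 CPM in the wild type ones. The 4 wild type libraries over 50 CPM are the ones in which Rpl13 lay below every knockout library. Without them the F set alone holds treated wild type libraries (2 of them), F replicates 1 and 3. F replicate 1 is the library with many red cell and immune cell counts, which held the highest value of 37 members. Its larger weight and the removal of the libraries with intestine markers cannot be told apart here. The knockout over wild type median of the F set was then 0.13, with 54 of 87 positive, no member called and 0.00406% of all genes called. Rpl13 was at 0.27 (edgeR adjusted p = 0.473). With all 6 treated libraries of the F set the median was 0.27, with 64 positive and no member called, where 0.146% of all genes were called. The part of these cell types and of intestinal tissue in the members' values was not tested.

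**Figure D5:**
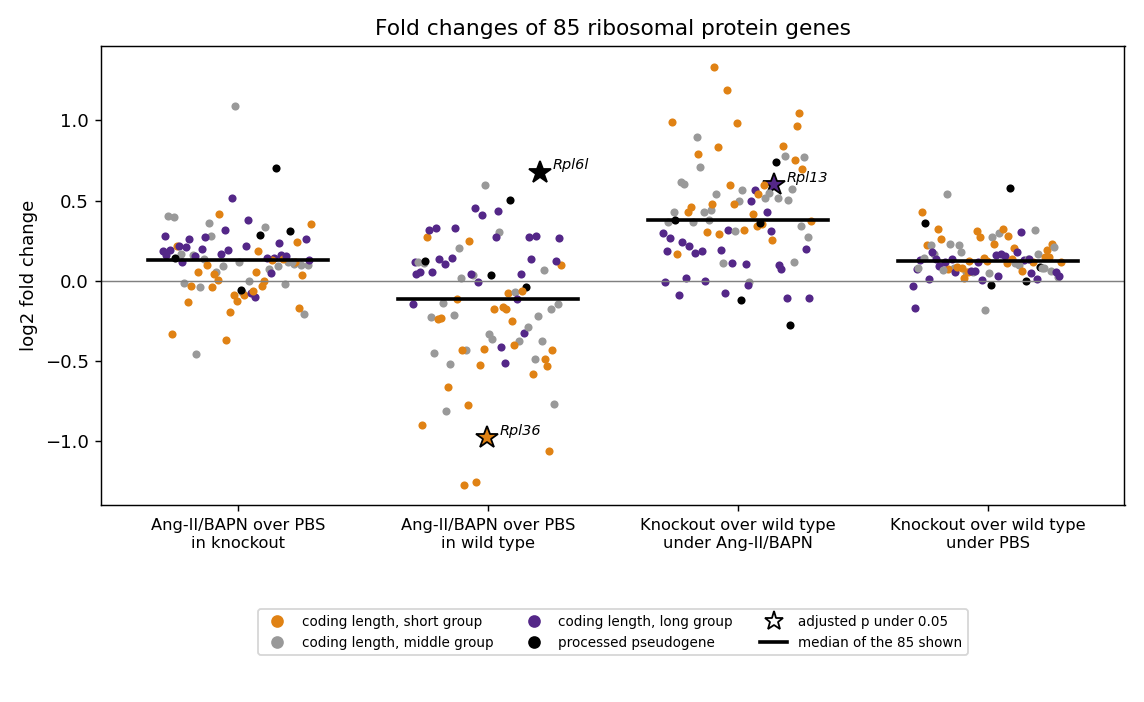
Log2 fold change (vertical axis) of 85 members in 4 comparisons (horizontal axis); Rpl3l and Rpl39l, at 0 in several libraries, are left out. Points are genes, coloured by coding length group, with processed pseudogenes in black, stars for an edgeR adjusted p under 0.05 and bars for the median of the genes shown. The stars are Rpl6l and Rpl36 in wild type and Rpl13 between treated genotypes.

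Between the genotypes under PBS no member was called, and no gene at all (0% of 24623), by edgeR, and DESeq2 called 88 genes, of which 0 were members. At an unadjusted p under 0.05 there were 1 member higher and 0 lower of 87, against 3.87% of all genes. The median was 0.13, against 0.03 over all genes, and 82 of 87 were positive. The title sets disagreed: in the F set the median was -0.30 with 7 of 87 positive, and in the plain set it was 0.55 with 84 positive. Of the 6 wild type and 6 knockout PBS libraries, the high Rn7sk ones are 2 wild type and 1 knockout library in the F set and 1 knockout library in the plain set. The smallest p-values were those of Rps3a2 and Rps3a3, processed pseudogenes that are 99.5% and 99.0% identical to the coding sequence of Rps3a1. Rps3a2 had 3.37, 5.70 and 7.35 CPM in knockout, against 2.09, 3.65 and 5.90 CPM in wild type (0.58, SE 0.27, edgeR adjusted p = 1).

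The difference between the responses of the genotypes was tested directly. No member and no gene was called (0%) by edgeR, and DESeq2 called 599 genes, of which 0 were members. At an unadjusted p under 0.05 there were 2 members higher and 0 lower, Rpl13 (0.47, SE 0.19, edgeR adjusted p = 0.311) and Rps14 (0.45, SE 0.21, edgeR adjusted p = 0.377), against 12.7% of all genes. The median was 0.25, against -0.03 over all genes; with library sizes alone it was 0.03, against -0.25 over all genes. The response of the F set minus that of the plain set was tested in each genotype and called no member and no gene (0%) by edgeR. At an unadjusted p under 0.05 there were 1 member higher and 0 lower in knockout and 0 higher and 1 lower in wild type, against 3.78% and 6.69% of all genes in knockout and wild type, and DESeq2 called 0 members in either. Its median was 0.44 in knockout and -0.26 in wild type. In knockout the response had a median of 0.36 in the F set, with 85 of 87 positive, and -0.06 in the plain set. In wild type it was -0.23 in the F set and 0.02 in the plain set.

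Among proteins with a known place or role, the stalk and the 5S particle were looked at one by one. Rplp2 of the stalk had 103, 124 and 271 CPM in knockout under Ang-II/BAPN, against 99.3, 130 and 214 CPM in knockout under PBS, and 54.9, 97.8 and 190 CPM in wild type under Ang-II/BAPN, against 81.0, 103 and 273 CPM in wild type under PBS. These ranges overlapped. Rpl5 and Rpl11 bind 5S ribosomal RNA and are known to inhibit Mdm2, the ligase that degrades p53. Rpl11 had medians of 238 and 199 CPM in knockout and 199 and 190 CPM in wild type, Ang-II/BAPN before PBS. Rps19, which is often mutated in human Diamond-Blackfan anaemia, lay between 112 and 281 CPM in knockout under Ang-II/BAPN, against 98.3 to 199 CPM under PBS, and between 53.1 and 201 CPM in wild type under Ang-II/BAPN, against 68.4 to 243 CPM under PBS. Rps3, a protein at the mRNA entry, had medians of 326 and 299 CPM in knockout and 294 and 258 CPM in wild type, Ang-II/BAPN before PBS. None of these passed the edgeR test over all 24 libraries in any of the 5 comparisons. Without wild type Ang-II/BAPN F replicate 1, Rps19 was called higher in knockout between treated genotypes (0.82, SE 0.23, edgeR adjusted p = 0.0444).

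Paralogues were each below their partners in mean CPM over 24 libraries. Rpl22l1 had a mean of 15.9 CPM and Rpl22 119 CPM, and their coding sequences are 67.5% identical. Rps27l, a p53 target in human cells, had 30.0 CPM and Rps27 64.5 CPM (76.2% identical), though Rps27l exceeded Rps27 in knockout Ang-II/BAPN F replicate 1 (56.0 against 54.2 CPM) and in wild type PBS plain replicate 3 (19.5 against 8.71 CPM). Rpl7l1, a protein of ribosome assembly, had 49.6 CPM and Rpl7 355 CPM (54.4%). The transcribed pseudogene Rps4l had 17.2 CPM and the X-linked Rps4x 416 CPM (79.9%). None of these passed the edgeR test over all 24 libraries in the 5 comparisons. Rps27 was at 8.71 CPM in wild type PBS plain replicate 3, against 32.8 to 128 CPM in the other 5 libraries of that group. Rows whose names carry -ps, 270 in all and outside the 87 members, held counts equal to 6.09 to 7.67% of the members' counts, and the split of reads between members and such copies is not given in the sources used here.

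Rpl3l and Rpl39l were at the lower limit. Rpl3l is the muscle form of Rpl3, with which it shares 73.2% of its coding bases, against a mean of 388 CPM for Rpl3 itself. Rpl3l had 0, 0, 0, 0.465, 0 and 0.236 CPM in the knockout libraries under Ang-II/BAPN and 0.247, 0.288, 0.107, 2.19, 0.192 and 1.58 CPM in those under PBS. It had 0, 0, 0, 2.01, 0.543 and 0 CPM in wild type under Ang-II/BAPN, and 0, 0.244, 0.090, 0.150, 0 and 0.583 CPM in wild type under PBS, each with the F set first. The 3 highest values came from plain set libraries in which 8 skeletal muscle markers summed to 357, 148 and 558 CPM (knockout PBS plain replicates 1 and 3 and wild type Ang-II/BAPN plain replicate 1). Knockout Ang-II/BAPN plain replicates 1 and 2 had sums of 299 and 246 CPM with Rpl3l at 0.465 and 0 CPM. The edgeR test over all 24 libraries did not call it in any of the 5 comparisons. For treated against untreated knockout its log2 fold change was -4.67 (SE 1.60, edgeR adjusted p = 0.0731). The member called lower in knockout by DESeq2, and with only the libraries compared, is not named here. Rpl39l never exceeded 23 counts in a library.

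Rpl17, of the large subunit, varied in another way, with an SD of 0.97 over 24 libraries and 1.02 over the 19 without high Rn7sk; it was singled out after its values were seen. It had 29.6, 98.0 and 178 CPM in knockout under Ang-II/BAPN, against 23.3, 35.1 and 110 CPM under PBS (1.09, SE 0.42, edgeR adjusted p = 0.108). In wild type it had 30.8, 87.8 and 150 CPM under Ang-II/BAPN, against 24.1, 44.8 and 92.3 CPM under PBS. The ranges overlapped in both genotypes.

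Genes that serve the ribosome without carrying such a name were taken from lists. Their counts are to be read against the 11.4% of all genes called in the response of knockout, the 24.8% in that of wild type and the 6.13% between treated genotypes, and most are near or below those shares. Of 12 elongation and initiation factors, 1 rose in treated knockout and 2 in treated wild type aorta. Pabpc1, the poly(A)-binding protein, rose by 0.74 (SE 0.23, edgeR adjusted p = 0.043) in knockout and by 1.03 (SE 0.23, edgeR adjusted p = 0.00321) in wild type. Eef1b2, an exchange factor of elongation, rose by 0.74 in wild type (SE 0.22, edgeR adjusted p = 0.0172). Of 8 transcripts that host small nucleolar RNAs or are noncoding partners of them, Snhg1 rose in knockout (0.55, SE 0.17, edgeR adjusted p = 0.0422) and none was called in wild type.

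Of 20 ribosome assembly factors, Rrs1 rose in treated knockout (0.48, SE 0.12, edgeR adjusted p = 0.0122). In treated wild type the nucleolar proteins Gnl3 (0.72, edgeR adjusted p = 0.0296) and Npm1 (0.64, edgeR adjusted p = 0.0137) rose, and Nop10, of the RNA-guided pseudouridine synthases, fell by 0.79 (edgeR adjusted p = 0.0231). Of 10 genes of RNA polymerase I, which makes ribosomal RNA, Taf1a fell by 0.58 in knockout (edgeR adjusted p = 0.0164) and by 1.15 in wild type (edgeR adjusted p = 2.11e-05), and Taf1d rose by 0.74 in wild type (edgeR adjusted p = 0.0167). Taf1a was higher in knockout than in wild type under Ang-II/BAPN (0.56, edgeR adjusted p = 0.0357).

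Among 15 regulators of the mTORC1 and Myc pathways, Myc, a transcription factor that acts on ribosomal genes, rose by 1.21 in knockout (SE 0.30, edgeR adjusted p = 0.0111) and by 1.72 in wild type (SE 0.30, edgeR adjusted p = 0.000349). In wild type Mycl also rose (1.43, edgeR adjusted p = 0.00394) and Tsc2, an inhibitor of mTORC1, fell by 0.60 (edgeR adjusted p = 0.00215). Under Ang-II/BAPN the level of Mycl in knockout was below that in wild type (-1.54, edgeR adjusted p = 0.0127). Of 8 p53 targets, 4 rose in wild type (Ccng1, Eda2r, Mdm2 and Sesn2, by 0.60 to 1.37) and none was called in knockout, where 24.8% of all genes were called in wild type and 11.4% in knockout; the difference between the genotypes' responses was not called for any gene.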

How the data were processed

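The authors deposited 1 table of genes with a whole-number read count and an FPKM value (fragments per kilobase, scaled to depth) per library. Per the labels' protocols, stranded total RNA libraries were read as 150 bp paired ends. The submitters' processing notes name HISAT2, StringTie, DESeq2 and GRCm38; for the counting tool, its strand setting and its treatment of multi-mapped reads the answer is "not given in the sources used here". The table's 4 columns that no label describes were not used. The count test was edgeR 4.0.16 (R 4.3.3): filterByExpr (minimum count 10, minimum total 15), TMM factors and a robust quasi-likelihood fit of 8 group means, with contrasts averaged over the title sets and Benjamini-Hochberg adjustment over 24623 genes (threshold 0.05). Standard errors come from the F statistic. The fit was tested on simulated data. Depth was 39002048 to 82040703 counts per library, and no 2 libraries of a group agreed within sampling noise (chi-square per degree of freedom of 61.6 or more over 24 pairs). Alternatives were other scalings, filters, covariates and sets of libraries, a replicate block, DESeq2 1.42.0, and limma 3.58.1 on log2 of FPKM plus 1 or 0.1. Coding lengths come from GENCODE M21 and promoters from RefSeq GRCm38.p6. The members, the gene lists and the tests were chosen with earlier results of these data known. Named members are, per comparison, up to 6 called in each direction (2 with the smallest p where none was called), the paralogues and their partners (Rpl10l was not analysed here), the stalk proteins, Rpsa, Rps6, Rps19, Rpl5, Rpl11 and Rps3, and the 3 members at either end by FPKM and by SD. Other members named, the length groups and the libraries with intestine markers were chosen after values were seen.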

Additional observations from a re-analysis of the deposited data

Results flagged for a closer look

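In 160 sets of 6 libraries (the share of counts, the difference between short and long members, and 38 named members, each in 4 groups), the highest or lowest library was set apart by Dixon's gap in 20. Chance flags about 1 in 20 sets where the sets are independent. Here the sets share libraries, and some members were named for their spread. The count of flags therefore cannot be set against that rate. Each set has 6 libraries of 1 genotype and treatment, and gaps of genes were taken on log2(CPM + 0.1).

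Knockout Ang-II/BAPN F replicate 1 stood apart in 10 of the 20. Its difference between short and long members was 1.36, against -0.10 in the next library. It was the highest of its group for Rps29 (429 CPM, next 50.7 CPM), Rps21 (296 CPM, next 56.1 CPM), Rpl39 (155 CPM, next 50.6 CPM), Rpl36 (221 CPM, next 69.7 CPM), Rps15 (1110 CPM, next 380 CPM), Rplp1 (916 CPM, next 394 CPM) and Rplp2 (271 CPM, next 143 CPM). It was the lowest for Rpl6 (212 CPM, next 331 CPM) and Rpl7 (245 CPM, next 379 CPM). Its Rn7sk level was 13.2 CPM, against at most 1.45 CPM in the other 5 libraries of the group. The part of Rn7sk in these values was not tested.

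Wild type Ang-II/BAPN F replicate 1 stood apart in 7. Its members' share was 3.24%, against 2% in the next library. It was the highest of its group for Rpsa (1830 CPM, next 779 CPM), Rplp0 (1640 CPM, next 821 CPM), Rpl4 (1110 CPM, next 653 CPM), Rpl3 (725 CPM, next 405 CPM), Rpl7 (694 CPM, next 383 CPM) and Rpl5 (675 CPM, next 355 CPM). The summed level of 4 red cell genes there was 42360 CPM, against at most 1293 CPM in the other 5 libraries of the group, and the part of these cells was not tested.

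Knockout PBS F replicate 2 had the highest members' share of its group (2.58%, next 1.92%). Knockout PBS plain replicate 1 had the lowest Rpl5 (254 CPM, next 307 CPM). Wild type PBS F replicate 1 had the highest Rpl39l (0.272 CPM, next 0.06 CPM), at 22 counts.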

How the results depend on the processing

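No setting tried called a member between the genotypes under PBS, in the difference between the genotypes' responses, or in the difference between the title sets. The share of all genes called is not given here for most settings. The counts in this section therefore describe how calls move with the setting and are not results about the members. In wild type, members called higher numbered 10 with library sizes alone and with limma on FPKM (either pseudocount), 2 with DESeq2, and 0 with Rn7sk as a covariate, without the 5 libraries with high Rn7sk or in the plain set alone. Members called lower there numbered 4 with only the libraries compared, 3 with DESeq2, and 0 with RLE size factors, library sizes alone, TMM without members and mitochondrial genes, no filter, the title set left out, the F set alone, the plain set alone, Rn7sk as a covariate, without the 5 libraries, without those with intestine markers, and limma on FPKM. The wild type median became 0.22 with limma on log2(FPKM + 0.1). The replicate block gave 1 higher and 0 lower in wild type and changed no other count; replicate numbers do not pair the libraries (84 pairs of deviations, r from -0.42 to 0.44, 19 over 0.1).

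In knockout, members called higher numbered 1 with Rn7sk as a covariate and with limma on FPKM and 7 without 6 libraries, and 1 was called lower with only the libraries compared and with DESeq2. Between treated genotypes, members called higher numbered 4 with a minimum count of 50 and with DESeq2, 23 without 6 libraries, and 0 with library sizes alone, the title set left out, the F set alone, the plain set alone, only the libraries compared, limma on FPKM and without the libraries with intestine markers. Under PBS the median was -0.30 in the F set and 0.55 in the plain set. That of the difference between the responses was -0.10 in the plain set. That of the F set minus the plain set in wild type became 0.19 with Rn7sk as a covariate and 0.15 without the 5 libraries. Rps3a3 under PBS, 0.36 over both sets, was -0.011 in the F set. Leaving out each of 24 libraries in turn gave 0 to 3 members higher and 0 to 1 lower in knockout, 0 to 3 higher and 0 to 3 lower in wild type, and 1 to 12 higher between treated genotypes (12 without wild type Ang-II/BAPN F replicate 1), with medians of 0.04 to 0.23, -0.28 to -0.02 and 0.28 to 0.56. Without mitochondrial genes the members' mean share was 2.56% and 2.36% in knockout and 2.23% and 2.23% in wild type, Ang-II/BAPN before PBS. Of summed FPKM it was, in the same order, 2.89% and 2.25% in knockout and 2.56% and 1.89% in wild type. The cause of these shifts was not tested. Without the 6 libraries, 1 group (wild type PBS of the F set) keeps 1 library, which is assumed to vary like the others. Depth limits Rpl3l, Rpl32l and Rpl39l most among the members, at no more than 181, 46 and 23 counts in a library.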
